A study of Mus musculus with 8 samples.

Results

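Microglia taken from mice with experimental autoimmune encephalomyelitis (EAE) and marked p50 in their labels were compared with microglia from EAE mice without that mark, over autosomal genes. The comparison rests on 4 of the 8 whole-transcript arrays of the series, 2 on each side, and was made as a pair within each of 2 genotypes. Of 18252 genes bright enough to be tested, 17122 lay on autosomes, and genes on X, on Y or with no assigned chromosome were left out. Of the autosomal genes, 11915 differed in the same direction in both genotype pairs, 5408 of them higher and 6507 lower in p50 EAE, and these are the members described here. The remaining 5207 differed in opposite directions.

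All mice were of the C57Black/6J strain, and each group held 1 array. The control genotype was labelled FL, and F/F on the p50 array, and the other genotype, icKO, was deficient in the connexin Cx47, a gap junction protein of oligodendrocytes that was deleted conditionally in oligodendroglia and not in the microglia measured. The 4 groups compared were control EAE, icKO EAE, control EAE p50 and icKO EAE p50. Control and icKO microglia from naive mice, and from EAE mice given iguratimod, an anti-inflammatory drug, made up the other 4 groups and entered the fit only to estimate the spread. The labels do not give the meaning of p50, the animals behind each array, their age, or the day or severity of disease. The p50 arrays are titled Mic and the other 6 MG.

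EAE is an autoimmune attack on the central nervous system in which T cells, monocytes and neutrophils enter the tissue. Microglia, its resident macrophages, respond to the interferons and cytokines of the infiltrate by producing antigen presentation molecules, guanylate-binding proteins and chemokines, by dividing, and by lowering the genes typical of their resting, homeostatic state. RNA of blood-derived cells can be carried along when microglia are isolated from an inflamed brain or spinal cord.

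The p50 arrays also differed from all others in sex-linked transcripts. On the scale of every level below, log2(intensity + 16), the other 6 arrays held Xist, through which female cells shut down an X chromosome, at 7.71 to 8.30, and the control and icKO p50 arrays at 15.90 and 16.64. The Y-linked gene Eif2s3y ranged from 9.44 to 10.17 without the p50 mark and gave 7.29 and 7.40 with it, and Kdm5d and Uty divided the arrays in the same way. The p50 mark, the sex of the mice and any difference in how the arrays were made therefore cannot be told apart in anything below. The defining markers of microglia were present on all 4 arrays: 8 of 8 measured members of that list lay above the array median, and Cx3cr1, the fractalkine receptor, lay between 18.15 and 18.43. None of 11 measured neuronal markers lay above the array median on any array, and of 13 oligodendrocyte markers 1 did. Median intensity ran from 243 to 269 over the 8 arrays.

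State and genotype were fitted as additive terms with limma over all 8 arrays, with 3 residual degrees of freedom, and a gene was called at a Benjamini-Hochberg adjusted p under 0.05. By this test 116 autosomal genes rose in p50 EAE, 0.677% of those tested, and 222 fell, 1.30%. All 338 had the same sign in both pairs. At least 2-fold differences in the same direction in both pairs were seen for 238 genes on the higher side, 1.39% of those tested, and 226 on the lower side, 1.32%. Of all autosomal genes tested, 31.6% were higher and 38.0% lower in both pairs. In 25.3% both p50 arrays lay above both EAE arrays, and in 31.4% below. These percentages are the background for the counts of gene groups that follow. The median difference over all autosomal genes was -0.02 log2 units in the control pair and -0.02 in the icKO pair.

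These calls rest on few arrays. The adjustment ran over all genes tested, including 94 X-linked and 61 Y-linked genes that passed, and over autosomal genes alone 121 calls were left, 48 higher and 73 lower. A further quantile normalization gave 92 higher and 115 lower calls. The fit without the control EAE array made 15 calls, of which 4 were among the 338, and without the icKO EAE array 21, of which 12 were. Without the control p50 array it made 18 calls, 17 of them among the 338, and without the icKO p50 array 3, all shared. Without either naive array it made 165, of which 140 were shared. Of the calls, 104 were of genes with established names, 38 higher and 66 lower, and 28 of these stayed under 0.05 when the adjustment covered autosomal genes alone. Among the genes described below, these were Mki67, Stmn1, Nusap1, Cdkn1a, Gbp2, Igtp, Ifi30, Ly6c2, Rac2, Lgals1, Naaa, Rpl35, Cox5a, Pirb, Pilra and Rps26 on the lower side and Dusp6, Rhob, Lrp1, Elmo1, Stab1, Slco2b1, Pag1, Ivns1abp, Rptor and Hnrnpa2b1 on the higher side. Without the icKO p50 array, without the control p50 array or without the control EAE array, 1 of the 104 was still called, Mki67, and without the icKO EAE array 6 were: Mki67, Ly6c2, Hp, Fosb, Rhob and Tagap. No call of a named gene changed direction under any setting tried. The other 234 called genes were predicted genes, numbered loci, pseudogenes, small RNAs and receptor segments.

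**Figure D1:**
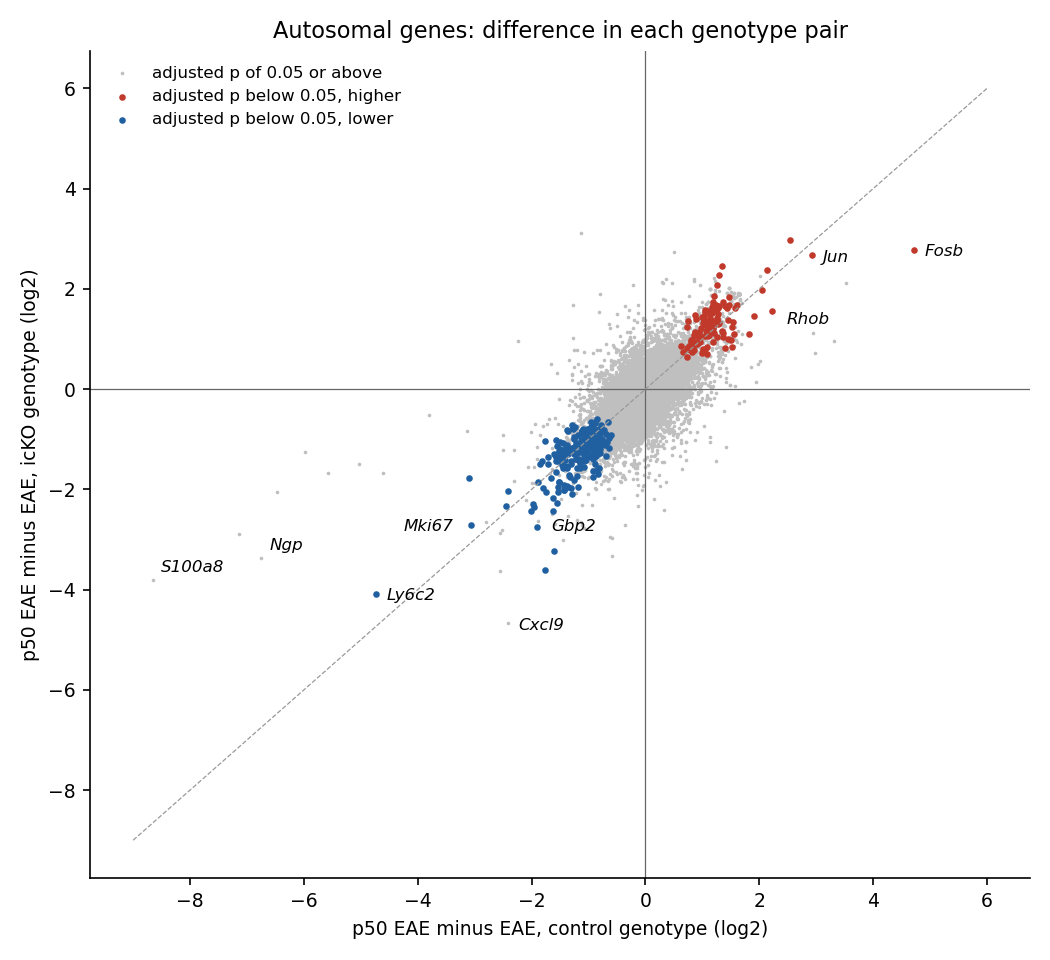
Each point is an autosomal gene, with its difference p50 EAE minus EAE in log2 units in the control pair on the horizontal axis and in the icKO pair on the vertical axis, and called genes in colour. Most called genes lie near the diagonal, Mki67 at -3.07 and -2.71, whereas S100a8 lies far off it, at -8.66 and -3.81.

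Genes induced by interferon were lower in p50 EAE almost throughout, and the guanylate-binding proteins gave the most calls. All 11 tested members of a list of 17 interferon-inducible GTPases were lower in both pairs, with both p50 arrays below both EAE arrays, and 5 fell by the test: Gbp2, Gbp4, Gbp7, Gbp8 and Igtp. The median difference of the 11 was -0.93 log2 units in the control pair and -1.33 in the icKO pair. These GTPases are induced by interferon gamma and act on the vacuoles of intracellular pathogens. Of 34 tested members of a type I interferon list of 40, 33 were lower in both pairs, with medians of -0.88 and -0.81, and 3 fell by the test, Zbp1, Ifit1 and Rsad2. The background shares were 38.0% lower in both pairs and 1.30% called lower.

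The letters just before the start sites of these genes are shown because interferon-activated transcription factors bind a repeated element there, the interferon-stimulated response element. The windows run from 250 bases before to 50 bases after the start in RefSeq's GRCm38.p6, are written along the gene's strand from 5′ to 3′, and carry in capitals each match of GAAANNGAAA on either strand; no matches overlap.
Gbp2, chr3:142620413-142620712, plus strand: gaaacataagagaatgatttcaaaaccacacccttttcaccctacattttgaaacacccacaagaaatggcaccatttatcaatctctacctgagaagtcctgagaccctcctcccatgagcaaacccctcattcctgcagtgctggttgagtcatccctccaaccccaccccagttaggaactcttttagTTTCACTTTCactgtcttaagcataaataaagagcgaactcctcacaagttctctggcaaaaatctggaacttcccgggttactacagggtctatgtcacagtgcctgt
Ifit1, chr19:34640639-34640938, plus strand: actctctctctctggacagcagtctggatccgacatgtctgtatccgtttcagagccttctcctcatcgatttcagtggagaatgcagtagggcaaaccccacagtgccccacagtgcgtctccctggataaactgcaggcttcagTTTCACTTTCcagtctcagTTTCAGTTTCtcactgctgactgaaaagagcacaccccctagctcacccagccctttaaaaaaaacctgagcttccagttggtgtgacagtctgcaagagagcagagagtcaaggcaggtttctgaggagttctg
Rsad2, chr12:26456403-26456702, minus strand: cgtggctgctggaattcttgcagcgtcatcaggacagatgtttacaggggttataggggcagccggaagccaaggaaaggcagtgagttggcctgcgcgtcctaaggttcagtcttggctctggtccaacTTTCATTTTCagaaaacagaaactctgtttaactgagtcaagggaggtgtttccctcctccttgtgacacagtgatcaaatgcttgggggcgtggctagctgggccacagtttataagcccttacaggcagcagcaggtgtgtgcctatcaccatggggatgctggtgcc

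The match in Gbp2 runs from position -59 to -50 relative to the start, those in Ifit1 from -104 to -95 and from -85 to -76, and that in Rsad2 from -120 to -111. All 4 are read on the strand opposite to the gene. Of the tested GTPases, 6 had a window and 6 of these held the element, Gbp2, Gbp3, Gbp7, Irgm1, Irgm2 and Igtp. Of the tested type I interferon genes, 24 had a window and 15 held it. The same element stood in 3.44% of 32851 windows of all genes. That share counts single windows, whereas a listed gene counted if any of its windows held the element, so the measures are unlike. A match describes the letters and does not show that a factor was bound.

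Gbp2 lay at 10.63 on the control EAE array and 11.46 on the icKO EAE array, and at 8.72 on each p50 array. The p50 arrays thus lay well below the EAE arrays and nearer to the naive ones, at 8.14 and 7.90. The difference was -2.33 ± 0.31 log2 units (SE, 2 pairs, limma adjusted p = 0.0256). Igtp, an immunity-related GTPase, lay at 11.47 and 11.74 in EAE and at 10.22 and 10.59 in p50 EAE, a difference of -1.20 ± 0.12 (adjusted p = 0.0125). Gbp7 lay at 11.49 and 12.31 in EAE and at 10.30 and 10.35 in p50 EAE (-1.58 ± 0.23, adjusted p = 0.0334). In each of these 3 genes the 2 sides did not overlap. Gbp4 fell by 1.53 log2 units and Gbp8 by 1.29. The others of the family, Gbp3, Gbp9, Irgm1, Irgm2, Iigp1 and Gvin1, had mean differences from -1.20 to -0.37 and did not pass. Members of this family are close copies of each other, and probes may be shared between them.

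Among the type I interferon genes, Ifit1, which binds foreign RNA, lay at 9.28 and 9.22 in EAE and at 8.24 and 8.10 in p50 EAE, a difference of -1.08 ± 0.17 (adjusted p = 0.0411). Rsad2, the antiviral enzyme viperin, lay at 9.51 and 9.71 against 8.45 and 8.71 (-1.03 ± 0.18, adjusted p = 0.0489). Zbp1, a sensor of nucleic acids that can trigger cell death, lay at 10.29 and 10.19 against 8.71 and 8.86 (-1.45 ± 0.24, adjusted p = 0.0436). The p50 values of Ifit1 lay below even the naive ones, 8.80 and 8.51, and those of Zbp1 next to them, 8.92 and 8.74. Larger differences that did not pass were those of Ifitm3, which restricts virus entry (-2.07 ± 0.47, adjusted p = 0.0864), Oas2, which activates an RNA-degrading enzyme (-1.64 ± 0.43, 0.113), and Cxcl10, a T cell attractant (-1.57 ± 0.33, 0.0728). Ifitm2, a relative of Ifitm3 outside the list, fell by 1.54. The exception was Bst2, which encodes tetherin, a protein that holds budding viruses at the cell surface: it lay at 10.23 and 9.67 in EAE and at 11.86 and 11.55 in p50 EAE, a difference of 1.76 ± 0.36 that did not pass (adjusted p = 0.0706). Leaving out any 1 of the 4 arrays ended each call of this and the preceding paragraph. Those of Zbp1, Ifit1, Rsad2 and Ifitm2 also ended without the naive arrays, and those of Gbp4, Gbp7 and Gbp8 without the iguratimod arrays.

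The p200 family, which senses DNA in the cytosol and nucleus, held some of the largest differences among the interferon-inducible genes but no call. Of 8 tested members 7 were lower in both pairs, at medians of -1.10 and -1.44. Ifi211 lay at 12.57 and 13.21 in EAE and at 10.01 and 10.35 in p50 EAE (-2.71 ± 0.54, adjusted p = 0.0661), and Ifi207 at 13.14 and 13.25 against 10.34 and 10.60 (-2.72 ± 0.66, 0.0978). Ifi204 gave -2.66 ± 0.62 (0.0893). Aim2, the inflammasome member of the family, lay at 10.93 and 11.01 in EAE and at 10.85 and 11.21 in p50 EAE, so that its 2 sides overlapped.

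Antigen presentation genes differed less evenly. Of 14 tested genes of class I presentation, 12 were lower in both pairs and 1 fell, H2-Q4, a nonclassical class I molecule, from 9.97 and 10.17 to 9.06 and 9.15 (-0.97 ± 0.17, adjusted p = 0.0465). The median over the 14 was -0.46 in the control pair and -0.54 in the icKO pair. Of 11 tested class II genes, 8 were lower in both pairs and none was called. The class II chains themselves were far apart: H2-Eb1 lay at 13.06 and 14.30 in EAE and at 10.51 and 10.68 in p50 EAE (-3.08 ± 0.62, adjusted p = 0.0672), and H2-Ab1 at 14.53 and 15.76 against 12.65 and 13.13 (-2.26 ± 0.56, 0.1). Ciita, the coactivator of class II genes, differed by -0.24 ± 0.12 and did not pass. Ifi30, a lysosomal thiol reductase that unfolds antigens for class II loading, fell by 2.22 ± 0.25 log2 units (adjusted p = 0.0165), from 14.51 and 14.75 to 12.51 and 12.32. Its naive values were 11.09 and 11.31, so the p50 arrays lay between naive and EAE. Both calls ended without any 1 of the 4 arrays, and that of H2-Q4 also without the naive or the iguratimod arrays.

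Genes of cell division formed the second group with several calls. Of 30 listed mitotic genes 19 were tested, 18 were lower in both pairs, in 17 the p50 arrays lay below both EAE arrays, and 7 fell: Mki67, Top2a, Ccna2, Ccnb2, Cdk1, Plk1 and Nusap1. The median was -0.64 in the control pair and -0.51 in the icKO pair. Of all autosomal genes, 38.0% were lower in both pairs, 31.4% had both p50 arrays below both EAE arrays and 1.30% were called lower. All 20 tested genes of DNA replication were lower in both pairs, at medians of -0.37 and -0.35, and none passed. An unadjusted limma p under 0.05 was reached by 14 of them, and by 3111 of all 17122 autosomal genes tested. A further 8 mitotic and 9 replication genes were too dim to be tested.

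Mki67, whose protein coats mitotic chromosomes and marks dividing cells, had the lowest adjusted p of all autosomal genes. It lay at 11.53 on the control EAE array and 11.09 on the icKO EAE array, and at 8.46 and 8.38 on the p50 arrays. Both p50 values lay about as low as the naive ones, 8.02 and 7.49, and the iguratimod values, 11.23 and 10.61, lay with EAE. The difference was -2.89 ± 0.17 log2 units, 7.42-fold (adjusted p = 0.00259), and it was still called without any 1 of the 8 arrays, at adjusted p values from 0.0082 to 0.03. In bulk RNA, fewer dividing cells and less transcript per cell cannot be told apart, here and for every gene in the comparison.

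Promoters of mitotic genes are known for a pair of elements read by repressor complexes of the resting cell and by the factor NF-Y, the cell cycle homology region TTTGAA and the CCAAT box. Windows from the same RefSeq table, with capitals marking both elements on either strand, are shown for Mki67 and for the 2 mitotic kinases that fell.
Mki67, chr7:135716330-135716629, minus strand: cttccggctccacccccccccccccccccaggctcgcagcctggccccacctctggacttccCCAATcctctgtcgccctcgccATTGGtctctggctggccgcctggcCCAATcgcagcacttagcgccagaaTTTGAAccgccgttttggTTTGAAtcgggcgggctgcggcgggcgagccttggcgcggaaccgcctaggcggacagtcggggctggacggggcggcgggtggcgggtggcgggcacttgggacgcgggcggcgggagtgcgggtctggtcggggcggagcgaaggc
Cdk1, chr10:69352863-69353162, minus strand: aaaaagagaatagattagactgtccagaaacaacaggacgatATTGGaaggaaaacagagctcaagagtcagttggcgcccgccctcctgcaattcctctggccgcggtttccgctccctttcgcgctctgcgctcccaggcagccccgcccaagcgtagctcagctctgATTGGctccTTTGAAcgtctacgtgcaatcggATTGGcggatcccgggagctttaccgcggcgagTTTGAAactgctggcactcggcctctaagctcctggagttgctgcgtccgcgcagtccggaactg
Plk1, chr7:122159185-122159484, plus strand: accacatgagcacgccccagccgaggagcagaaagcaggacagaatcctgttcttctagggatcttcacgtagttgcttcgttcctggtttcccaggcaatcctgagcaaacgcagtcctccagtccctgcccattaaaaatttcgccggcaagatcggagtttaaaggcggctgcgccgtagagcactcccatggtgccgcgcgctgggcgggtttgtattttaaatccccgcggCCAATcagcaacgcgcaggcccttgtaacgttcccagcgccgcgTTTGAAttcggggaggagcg

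Mki67 and Cdk1 each held 2 copies of TTTGAA and 3 CCAAT boxes, without overlap. In Plk1 a CCAAT box runs from -14 to -10 and TTTGAA lies after the start, from 31 to 36. Of 15 tested mitotic genes with a window, 14 held TTTGAA, 12 a CCAAT box and 12 both. Over all 32851 windows the shares were 17.9%, 37.4% and 6.95%, again of single windows, whereas listed genes counted if any of their windows matched. Of the 7 called genes, 6 had a window, and 5 of these held both elements.

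Cdk1, the kinase that drives entry into mitosis, lay at 8.94 and 8.73 in EAE and at 7.87 and 7.77 in p50 EAE (-1.01 ± 0.16, adjusted p = 0.0395). Its cyclin partner Ccnb2 lay at 8.69 and 8.81 against 7.74 and 7.69 (-1.04 ± 0.14, adjusted p = 0.0288). Plk1, a kinase of the mitotic spindle, lay at 8.86 and 8.64 against 7.90 and 7.97 (-0.81 ± 0.13, adjusted p = 0.0411). In all 3 the p50 values lay close to the naive ones and did not overlap with EAE. Top2a, which untangles replicated DNA, fell from 9.23 and 8.72 to 7.94 and 8.01, the spindle protein Nusap1 fell by 0.98 and cyclin Ccna2 by 0.77. Outside the list, the microtubule regulator Stmn1 fell by 1.42 ± 0.16 (adjusted p = 0.0165), the condensin subunit Smc4 by 0.99 and the nuclear import receptor Kpna2 by 1.13. Cdkn1a, an inhibitor of cyclin-dependent kinases, also fell, by 1.25 ± 0.14 (adjusted p = 0.0167), from 10.55 and 10.46 to 9.16 and 9.35. Each of these calls ended without any 1 of the 4 arrays. Those of Top2a, Plk1, Ccna2, Nusap1, Smc4 and Kpna2 also ended without the naive arrays, and those of Cdk1, Top2a, Plk1 and Ccna2 without the iguratimod arrays.

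**Figure D2:**
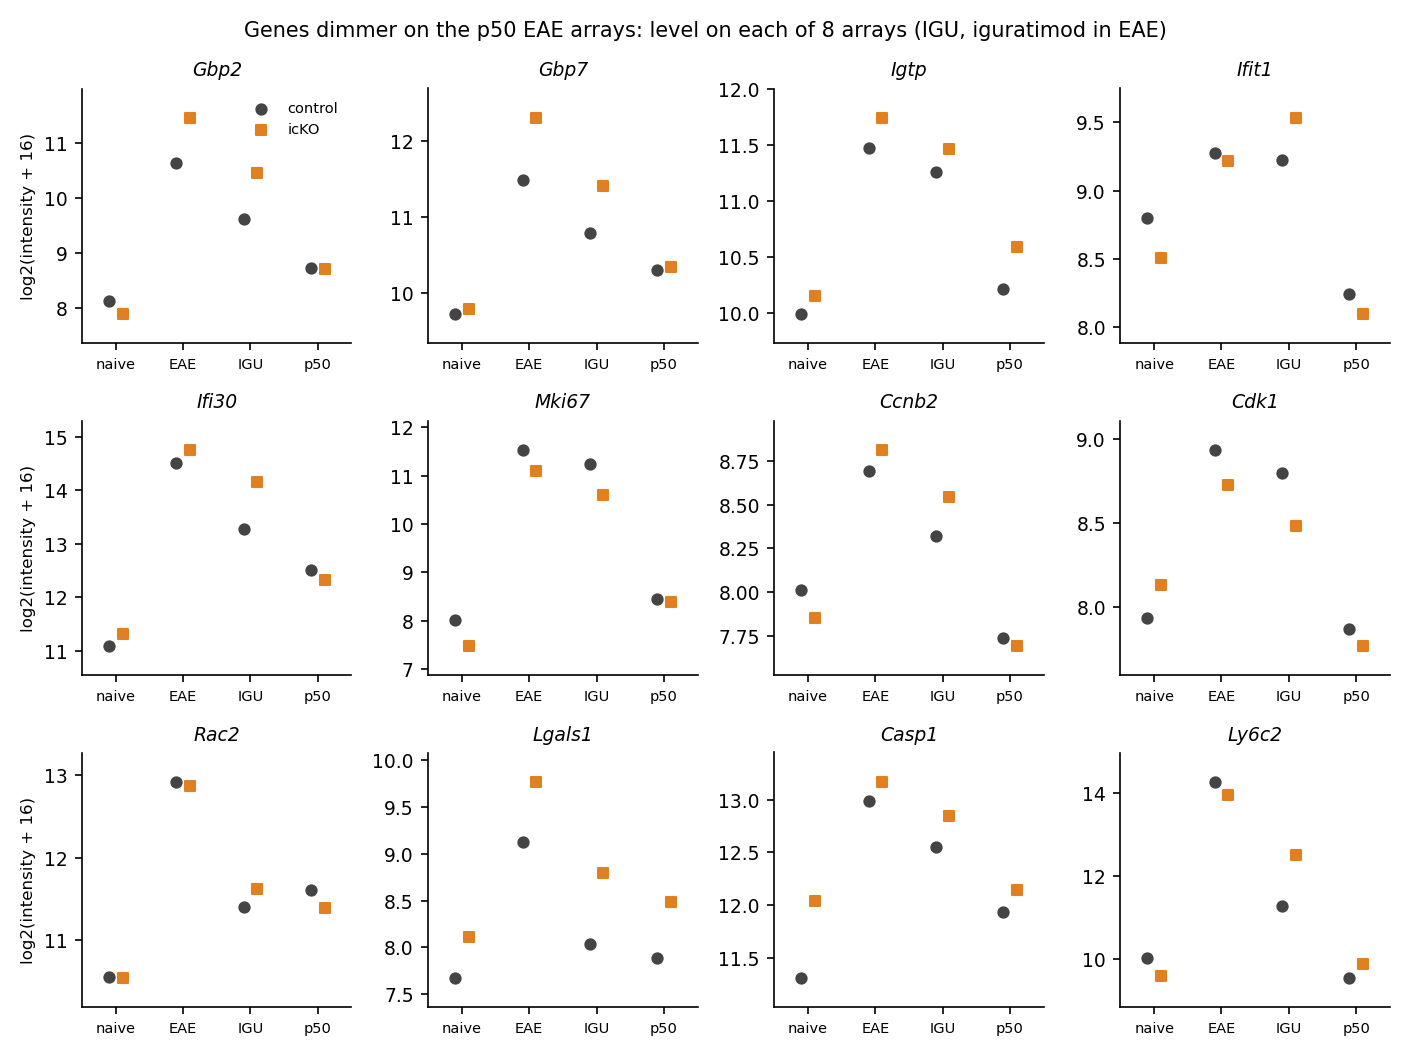
Levels of 12 called genes that were lower in p50 EAE, in log2(intensity + 16), on all 8 arrays by state and genotype, 1 point for each array. In each panel both p50 points lie below both EAE points, as for Gbp2, at 8.72 and 8.72 against 10.63 and 11.46.

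Markers of blood-derived myeloid cells were lower as well. Ly6c2, the surface antigen of inflammatory monocytes, lay at 14.27 and 13.96 on the EAE arrays and at 9.54 and 9.88 on the p50 arrays, where it was as low as in naive microglia, at 10.02 and 9.57. The difference was -4.41 ± 0.40 log2 units, 21.2-fold (adjusted p = 0.00831), the largest among the called genes with established names, and it was called neither without the control EAE array nor without either p50 array, at adjusted p values up to 0.112. All 10 tested members of the monocyte list of 15 were lower in both pairs, at medians of -1.08 and -1.46, and with the 4 members too dim to be tested these were -0.36 and -0.95. Ccr2, the receptor that brings monocytes into tissue, lay at 9.54 and 9.91 against 8.27 and 8.44 (adjusted p = 0.104). Ly6c1, a near copy of Ly6c2 that is also found on endothelium, fell by 1.35 ± 0.19 (adjusted p = 0.0304), and probes may be shared between the 2 genes. Its call ended without any 1 of the 4 arrays and without the iguratimod arrays.

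Neutrophil transcripts gave the widest differences, but they were uneven between the pairs. Of 16 tested members of the list of 20, 13 were lower in both pairs, with a median of -3.46 in the control pair and -1.37 in the icKO pair. With the 4 members too dim to be tested the medians were -1.70 and -1.12. By the test 1 fell, Hp, the haptoglobin gene, by 1.40 ± 0.24 (adjusted p = 0.0471), a call that held without the icKO EAE array but ended without any other array. S100a8, a subunit of the neutrophil alarmin calprotectin, lay at 18.88 on the control EAE array and 15.12 on the icKO EAE array, and at 10.22 and 11.31 on the p50 arrays. Its mean difference of -6.23 ± 1.38 did not pass (adjusted p = 0.0817), nor did those of S100a9, its partner (-5.02 ± 1.17, 0.09), of the granule protein gene Ngp (-5.07 ± 1.18, 0.09), or of the cathelicidin gene Camp (-4.27 ± 1.24, 0.138). In all 4 the sides did not overlap and the control EAE array was the highest.

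The intensities of the 20 neutrophil genes summed to 953600 on the control EAE array, 124100 on the icKO EAE array, 29550 on the control p50 array and 33590 on the icKO p50 array. Those of 14 measured monocyte genes summed to 29060 and 30400 in EAE and to 5155 and 6099 in p50 EAE, and those of 8 microglia markers to 505500 and 427300 against 606000 and 542100. Such sums weigh the brightest genes most. In EAE these were S100a8 for neutrophils and Ly6c2, at 14.27 and 13.96, for monocytes. On the p50 arrays the brightest neutrophil gene was Csf3r, at 14.35 and 14.11. It lay at 14.23 and 13.81 in EAE and at 12.97 and 13.07 in naive microglia. Of the neutrophil genes, 15 and 14 lay above the array median in EAE and 13 and 14 in p50 EAE, and of the monocyte genes 9 and 10 against 9 and 8. Monocytes and neutrophils also express interferon-inducible, class II and lysosomal genes, and proliferating cells may be of any type. The part of these cells in the lower values described above and below was not tested.

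Chemokines and cytokines of the inflamed tissue were mostly lower without passing. Cxcl9, which is induced by interferon gamma and attracts T cells, gave -2.42 in the control pair and -4.68 in the icKO pair (-3.55 ± 0.86, adjusted p = 0.0978). Ccl12, a monocyte attractant, gave -1.85 ± 0.33 (0.0529), and Ccl2 gave -1.91 ± 0.52 (0.119). Il1b lay at 9.77 and 11.79 against 8.58 and 9.18 (0.113), and C4b, a complement component, gave -2.16 ± 0.39 (0.0547). Ccl3, by contrast, lay at 12.31 and 15.86 in EAE and at 13.89 and 15.92 in p50 EAE, so that its sides overlapped. The inflammasome parted: Casp1, the protease that matures interleukin 1 beta, fell by 1.04 ± 0.17 (adjusted p = 0.0423), from 12.99 and 13.17 to 11.93 and 12.15, and Nlrp3, the sensor, rose by 0.78 ± 0.13 (adjusted p = 0.0417), from 9.81 and 10.12 to 10.57 and 10.93. Il1f9, an interleukin 1 relative, fell by 2.44 ± 0.35 (adjusted p = 0.0322).

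Other genes that fell came from several lists, except Naaa, which is on none, and they stand for no group. Cd274, the checkpoint ligand PD-L1, lay at 9.37 and 9.98 in EAE and at 8.44 and 8.89 in p50 EAE (-1.01 ± 0.17, adjusted p = 0.048). Rac2, the GTPase of the phagocyte NADPH oxidase, lay at 12.92 and 12.87 against 11.60 and 11.38, a difference of -1.40 ± 0.14 (adjusted p = 0.013). Lgals1, a galectin, lay at 9.12 and 9.77 against 7.89 and 8.48 (-1.26 ± 0.13, adjusted p = 0.0132). The 2 sides did not overlap in these genes, and the p50 values of Lgals1 and Cd274 lay near the naive values. Cstb, a cathepsin inhibitor, fell by 2.41, Naaa, a lysosomal amidase, by 1.90, the membrane protein gene Ms4a6c by 2.03, and the lectin receptors Clec4e and Clec12a by 1.03 and 0.93. The lists behind them differed. Of 29 tested lysosomal genes 6 were higher and 10 lower in both pairs, of 19 C-type lectins and Siglecs 4 and 11, of 14 galectins and annexins 2 and 11, and of 10 members of the Ms4a family 1 and 9. The background shares were 31.6% higher and 38.0% lower, and the lysosomal share of lower genes was near the latter. Ctss, the cathepsin that trims the class II chaperone, lay between 18.57 and 18.62 on all 4 arrays. Each call of this and the preceding paragraph ended without any 1 of the 4 arrays. Without the naive arrays those of Nlrp3, Il1f9, Cstb, Ms4a6c, Clec4e and Clec12a ended too, and without the iguratimod arrays those of Casp1, Nlrp3, Cd274, Cstb, Clec4e and Clec12a.

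Genes of the homeostatic microglial state were higher in p50 EAE. Of 33 listed genes 28 were tested, and 25 were higher in both pairs, none lower, against backgrounds of 31.6% and 38.0%. In 19 the p50 arrays lay above both EAE arrays, and 5 rose by the test, against a background of 0.677%: Tmem119, Slco2b1, Upk1b, Rhob and Jun. Jun and Rhob are also members of the immediate early lists below and are counted again there, so the groups are not separate. The median was 0.65 log2 units in the control pair and 0.78 in the icKO pair. The median level of the list was 13.05 and 12.60 in EAE, 13.84 and 13.80 in p50 EAE and 13.29 and 13.67 in naive microglia, so the p50 arrays stood above naive as well.

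Tmem119, a surface protein that tells microglia from other macrophages, lay at 10.90 and 10.71 in EAE and at 11.91 and 11.50 in p50 EAE (0.90 ± 0.16, adjusted p = 0.0483). Slco2b1, an organic anion transporter, lay at 13.02 and 12.40 against 14.15 and 13.82 (1.28 ± 0.16, adjusted p = 0.0236). Upk1b, a tetraspanin, lay at 11.67 and 11.59 against 13.23 and 13.20 (1.59 ± 0.27, adjusted p = 0.0452). The naive values of Upk1b, 13.01 and 13.60, matched those of p50 EAE, whereas both p50 values of Tmem119 lay above its naive ones, 10.69 and 10.50. Adgrg1, an adhesion receptor of microglia that was not in the list, rose by 1.16 ± 0.20 (adjusted p = 0.0483). Members that did not pass were P2ry12, the receptor through which microglial processes sense ATP (0.88 ± 0.23, 0.115), the transcription factor Sall1 (0.79 ± 0.20, 0.1), the growth factor receptor Csf1r (0.95 ± 0.21, 0.0781) and the apoptotic cell receptor Mertk (1.25 ± 0.24, 0.06). Cx3cr1 differed by 0.12 ± 0.12 and Sparc by 0.04 ± 0.12. The summed monocyte intensity given above was lower on the p50 arrays, where this list was higher. The neutrophil sum was also lower there. The 2 EAE arrays, which also differ in genotype, held it at 953600 in control and 124100 in icKO. The list median on them was 13.05 and 12.60. The part of these cells in the list was not tested.

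Uptake genes rose in part. Of 18 tested genes of phagocytosis, 9 were higher and 5 lower in both pairs, against backgrounds of 31.6% and 38.0%. Lrp1, Elmo1 and Stab1 rose while Rac2 fell, against 0.677% called higher and 1.30% called lower. Lrp1, a large endocytic receptor for myelin and apoptotic debris, lay at 11.71 and 11.47 in EAE and at 13.10 and 13.13 in p50 EAE, a difference of 1.53 ± 0.17 (adjusted p = 0.0165). Elmo1, which links engulfment receptors to Rac, lay at 11.12 and 10.99 against 12.56 and 12.38 (1.41 ± 0.16, adjusted p = 0.0179). The scavenger receptor Stab1 lay at 9.43 and 9.36 against 10.69 and 10.40 (1.15 ± 0.15, adjusted p = 0.0259). In all 3 both p50 arrays also lay above all other arrays, the naive ones included.

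**Figure D3:**
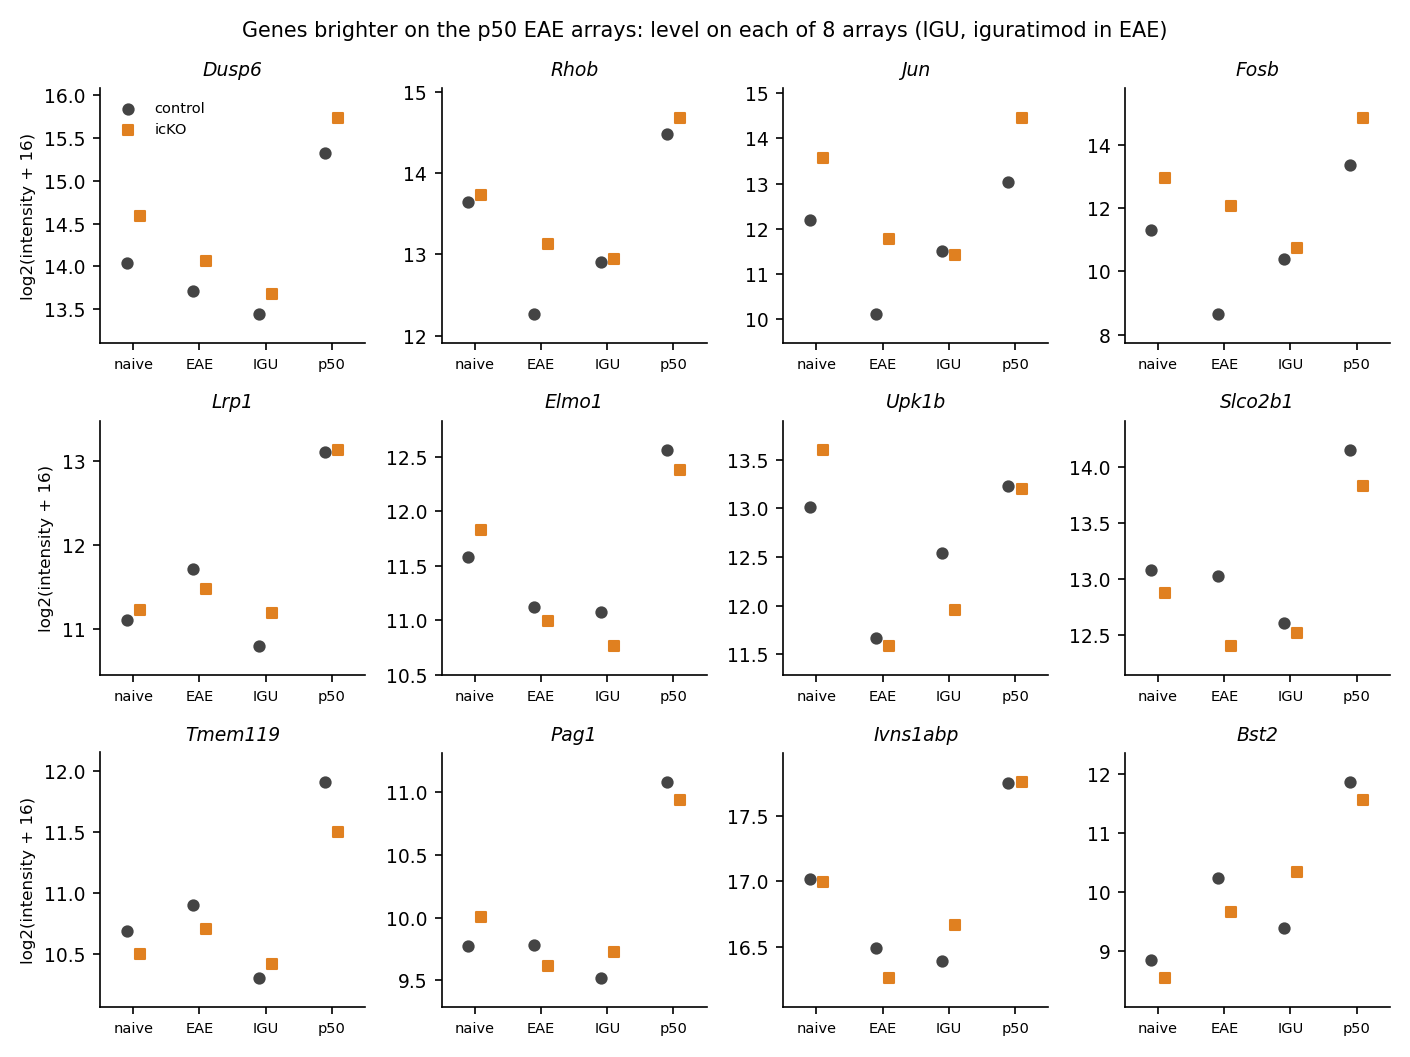
Levels of 12 genes that were higher in p50 EAE, in log2(intensity + 16), on all 8 arrays by state and genotype, 1 point for each array. All passed the test except Bst2, and both p50 points lie above both EAE points, as for Lrp1, at 13.10 and 13.13 against 11.71 and 11.47.

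Other genes that rose are named here because they passed the test, and they stand for no group. Inpp5d, the lipid phosphatase SHIP, lay at 12.55 and 12.42 in EAE and at 13.67 and 13.49 in p50 EAE (1.10 ± 0.16, adjusted p = 0.0333). Nckap1l, a subunit of the actin-regulating WAVE complex, lay at 13.44 and 13.28 against 14.38 and 14.29 (0.97 ± 0.15, adjusted p = 0.0371). Pag1, an adaptor that restrains Src kinases, lay at 9.78 and 9.62 against 11.08 and 10.94 (1.31 ± 0.15, adjusted p = 0.0187). The naive values of Inpp5d, 12.35 and 12.54, lay with EAE and not with p50 EAE. The semaphorin receptor Plxna4 rose by 1.01, the membrane-bending protein gene Srgap2 by 1.21, the transporter Abcc3 by 1.23 and Rptor, a subunit of the growth-controlling mTOR complex, by 1.02. Ivns1abp, a bright gene, lay at 16.49 and 16.26 against 17.75 and 17.76 (1.38 ± 0.15, adjusted p = 0.0155). Each call of this and the 2 preceding paragraphs ended without any 1 of the 4 arrays. Those of Tmem119, Adgrg1, Stab1, Inpp5d, Nckap1l, Plxna4, Srgap2, Abcc3 and Rptor also ended without the naive arrays, and that of Adgrg1 without the iguratimod arrays.

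Immediate early genes, which are switched on within minutes of a stimulus, formed the other higher group. Of 6 tested AP-1 genes 5 were higher in both pairs, at medians of 2.07 and 1.67, and Fosb and Jun rose. A further 3 were too dim to be tested, and with them the medians were 0.48 and 0.46. The background shares were 31.6% higher in both pairs and 0.677% called higher. In 4 of the 6 tested genes the 2 sides did not overlap. Over all autosomal genes both p50 arrays lay above both EAE arrays in 25.3% and below them in 31.4%. Fosb lay at 8.66 on the control EAE array, 12.08 on the icKO EAE array, 13.38 on the control p50 array and 14.86 on the icKO p50 array, a difference of 3.75 ± 0.65 log2 units (adjusted p = 0.0489). Jun lay at 10.12, 11.78, 13.04 and 14.45 in the same order (2.80 ± 0.41, adjusted p = 0.0351). In both genes the icKO array was the higher of the EAE arrays and of the p50 arrays, and the p50 arrays lay above both EAE arrays. Fos lay at 8.40, 11.77, 11.34 and 12.90, so that its control p50 array lay below its icKO EAE array, and it did not pass (2.04 ± 0.69, adjusted p = 0.187).

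Of 19 tested immediate early regulators outside AP-1, 16 were higher in both pairs and none lower, at medians of 0.98 and 0.63. In 8 both p50 arrays lay above both EAE arrays, against 25.3% of all autosomal genes. By the test 2 rose, Dusp6 and Rhob, against a background of 0.677%. With 8 members too dim to be tested the medians were 0.71 and 0.34. Dusp6, a phosphatase that switches off ERK, lay at 13.72 and 14.06 in EAE and at 15.32 and 15.73 in p50 EAE, a difference of 1.64 ± 0.13, 3.11-fold (adjusted p = 0.00608). Rhob, an immediate early GTPase, lay at 12.27 and 13.13 against 14.49 and 14.68 (1.88 ± 0.22, adjusted p = 0.0192). Both stood above their naive levels, 14.04 and 14.59 for Dusp6 and 13.64 and 13.73 for Rhob. Dusp1, a related phosphatase, lay at 14.56, 17.48, 17.87 and 18.43 in the order control EAE, icKO EAE, control p50 and icKO p50, and did not pass (adjusted p = 0.14). Outside this list, Zfp36l1, which destabilises messenger RNA, rose by 1.22 ± 0.18 (adjusted p = 0.0358), Per1, a clock gene, by 1.08 ± 0.16 (0.0336) and the stress chaperone Hspa1a by 1.06 ± 0.17 (0.0424). Of 12 tested heat shock genes 5 were higher and 2 lower in both pairs. Among these genes, only Fosb and Rhob were still called without the icKO EAE array, and none without any other of the 4 arrays; Fosb, Jun and Hspa1a also lost the call without the naive arrays, and Zfp36l1, Per1 and Hspa1a without the iguratimod arrays.

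Genes of translation and respiration were lower by small steps. All 18 tested cytosolic ribosomal protein genes were lower in both pairs with the sides apart, at medians of -0.56 and -0.61, and 1 fell, Rpl35, from 16.93 and 17.25 to 15.50 and 15.24 (-1.72 ± 0.19, adjusted p = 0.0162). The other 17 listed had no row of their own here. Over all autosomal genes, 38.0% were lower in both pairs, 31.4% had both p50 arrays below both EAE arrays and 1.30% were called lower. Of 178 tested ribosomal protein pseudogenes, whose probes may read the parent genes, 33 were called lower and none higher, at medians of -0.79 and -0.80. Pseudogenes of every kind, 2997 tested, gave 141 lower calls. Of 26 tested genes of oxidative phosphorylation 22 were lower and 1 higher in both pairs, at medians of -0.37 in each pair, and Cox5a and Atp5o fell, by 1.26 ± 0.14 (adjusted p = 0.0169) and 0.65 ± 0.11 (0.0471). Of 22 proteasome genes 19 were lower in both pairs, with medians of -0.20 and -0.54 and no call. With a further quantile normalization the median over all autosomal genes moved by less than 0.1 log2 units, and these 3 lists stayed lower. The calls of Rpl35, Cox5a and Atp5o ended without any 1 of the 4 arrays, and that of Atp5o also without the naive or the iguratimod arrays.

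**Figure D4:**
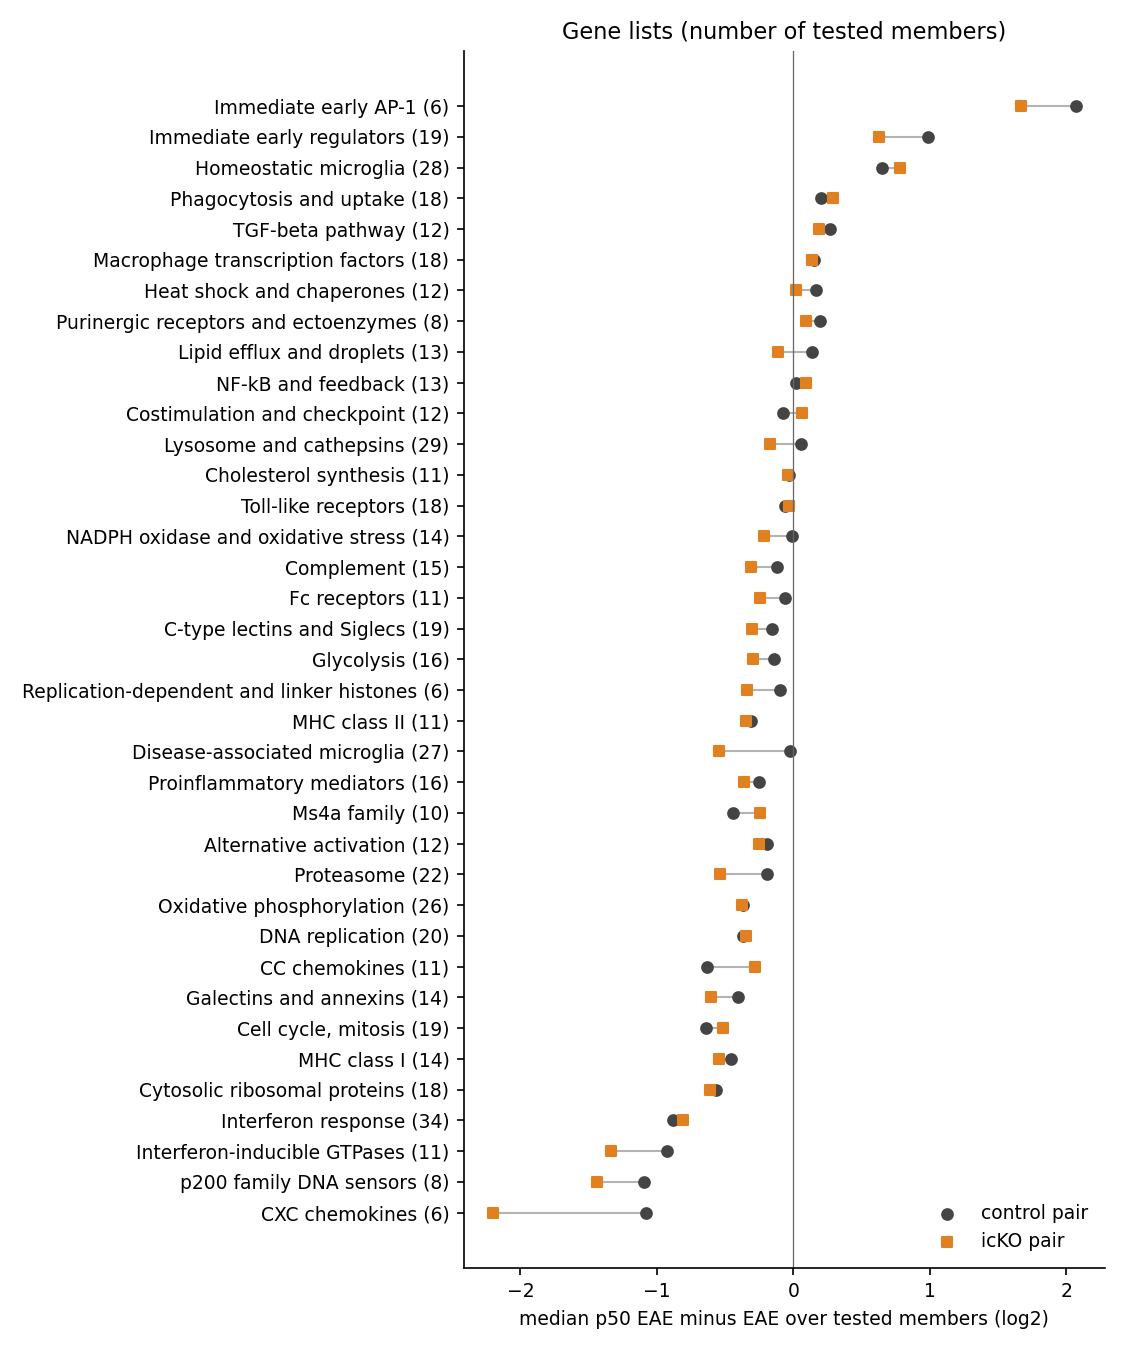
Median difference p50 EAE minus EAE, in log2 units, in the control pair and in the icKO pair. Shown is each gene list with at least 3 tested members, other than the lists of cell type markers. AP-1 is plotted at 2.07 and 1.67, over tested members alone. With the members too dim to be tested these medians were 0.48 and 0.46.

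Several further lists had at most 1 call. Of 27 tested genes of the disease-associated microglial state 4 were higher and 15 lower in both pairs, with 1 call, Lgals1. Cst7, a cathepsin inhibitor, lay at 12.48 and 13.69 in EAE and 11.03 and 10.68 in p50 EAE (adjusted p = 0.141), whereas Tyrobp, the adaptor of Trem2, gave 0.01 ± 0.30 and the tetraspanin Cd9 lay at 13.61 and 14.04 in EAE and at 14.19 and 14.18 in p50 EAE, without a call. The median of the list was -0.03 in the control pair and -0.54 in the icKO pair. Of 12 tested genes of the TGF-beta pathway, which maintains microglial identity, 10 were higher and 1 lower in both pairs, against backgrounds of 31.6% and 38.0%, with none called. Its ligand Tgfb1 gave 0.67 ± 0.12 (adjusted p = 0.0549) and its receptor Tgfbr1 1.25 ± 0.27 (0.0753). Of 16 tested genes of glycolysis 2 were higher and 10 lower in both pairs, also without a call. Lists of Toll-like receptors, complement, cholesterol synthesis and macrophage transcription factors had no call.

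A few other bright genes with large differences in both pairs did not pass, and all but Btg2 belonged to none of these groups. Ttr, the thyroxine carrier of choroid plexus, lay at 9.93 and 9.22 in EAE and at 11.43 and 10.61 in p50 EAE (adjusted p = 0.0906). Hpgd, which degrades prostaglandins, gave 1.41 ± 0.25 (0.0519), Rasgrp3, a Ras activator, 1.39 ± 0.27 (0.065) and the transporter Abca9 1.38 ± 0.35 (0.108). Btg2, an inhibitor of proliferation and a member of the list of immediate early regulators above, gave 1.30 ± 0.24 (0.0578).

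No gene was called as differing between the genotypes in this comparison. A fit that let EAE and p50 EAE each have a genotype effect of its own left 1 residual degree of freedom and gave 0 calls (limma, lowest adjusted p = 1.0), with 540 autosomal genes at an unadjusted p under 0.05. Among bright genes of opposite sign, Il4ra, the receptor for interleukin 4, lay at 12.59 and 11.56 in EAE and at 11.82 and 11.90 in p50 EAE, so the control pair was lower by 0.77 and the icKO pair higher by 0.34. Gpnmb, a glycoprotein of lipid-laden macrophages, lay at 9.15 and 10.40 against 9.61 and 9.60, and the sodium pump subunit Atp1b3 at 12.28 and 13.04 against 13.06 and 12.43. In each the 2 EAE arrays lay further apart than the 2 p50 arrays.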

How the data were processed

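Microglial RNA was profiled on whole-transcript arrays, 1 array in each of 8 groups. Per the labels' protocols, RNA was extracted with TRIzol, purified with a total RNA kit and labelled with a whole-transcript pico kit. The table deposited by the authors holds linear-scale intensities in 65956 rows, made with Affymetrix Expression Console per the submitters' processing notes. Its version and the summarisation and normalization are not given in the sources used here.

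A single gene symbol was given for 31257 rows, 1493 rows with several were not used, and 33206 had no name here. In 1100 rows an old symbol was replaced through RefSeq records of GRCm38.p6, and a name the array gives to another row was not taken. Each of 30750 genes was represented by its brightest probe set, as log2(intensity + 16), which understates differences of dim genes. Testing was limited to genes brighter than the 50th percentile of named probe sets of some array.

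The test was limma 3.58.1 in R 4.3.3 (lmFit and eBayes, two-sided) on an additive model of state and genotype over the 8 arrays, with 3 residual degrees of freedom and a prior SD of 0.16 log2 units. Benjamini-Hochberg adjustment covered 18252 genes. Nothing says that an array stands for separate animals, so p-values reflect only how these arrays vary, and their number limits the precision. A genotype effect that depends on the state counts as spread. The fit was tested on simulated data.

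Members, gene lists and rules were chosen with earlier results of these data known. Named genes were the 15 on each side with the largest smaller difference of the 2 pairs, above the 60th percentile of brightness, and from each list the called members and up to 3 with the largest differences in each direction. Adgrg1, Ifitm2, Ifi30, Stmn1, Smc4, Kpna2, Cdkn1a, Il1f9, Naaa, Zfp36l1, Per1 and the called genes of signalling were named because they passed, after their values were seen. List members were counted and not tested as sets. Alternatives were dropping the filter or raising it to the 70th percentile, quantile normalization, median centring, pseudocounts 1 and 64, the mean of probe sets, a trended and robust prior, fits to fewer arrays, and adjustment over autosomal genes. Promoter windows came from RefSeq's GRCm38.p6.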

Additional observations from a re-analysis of the deposited data

Results flagged for a closer look

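Xist was not part of the comparison, being X-linked, and lay at 15.90 or above on both p50 arrays and at 8.30 or below on the other 6. Kdm5d gave 7.54 and 7.58 with the p50 mark and 9.02 to 9.22 without it, and Uty 7.34 and 7.57 against 8.98 to 9.60. Of the sex-linked genes tested, 94 on X and 61 on Y passed the same limma test.

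In 6 gene lists the median difference p50 EAE minus EAE had opposite signs in the genotype pairs, and none of these differences between genotypes was tested. In log2 units, the median in the control pair and then in the icKO pair was -0.0747 and 0.0645 for costimulation and checkpoint genes, 0.0573 and -0.175 for lysosomal genes, and 0.134 and -0.113 for lipid efflux and droplet genes. For markers of other cells it was 0.0817 and -0.282 for 7 NK cell genes, 0.0086 and -0.284 for 3 B cell genes, and -0.0263 and 0.287 for 3 astrocyte genes.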

How the results depend on the processing

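The test made 338 autosomal calls, against 220 with no filter on dim genes, 207 after quantile normalization, 753 with only the 4 arrays compared, 165 without the naive pair and 121 with adjustment over autosomal genes. With 1 array left out the count ran from 3, without the icKO p50 array, to 304, without an iguratimod array. The remaining settings gave between 257 and 449. Of the 104 called genes with established names, 58 were still called with no filter and 56 after quantile normalization, and none changed direction under any setting. The count of genes with the same sign in both pairs was 18987 with no filter and 7780 with the filter at the 70th percentile. At least 2-fold differences were shared by 464 genes, at least 1.5-fold by 1344, and 738 and 1108 reached 2-fold in the control and in the icKO pair alone. The difference between genotypes gave 0 calls under every alternative run, with 540 genes at an unadjusted p under 0.05. Medians within 0.35 log2 units of 0 changed sign under some setting for the lists of costimulation, heat shock, Toll-like receptor, disease-associated, lipid efflux, cholesterol, NADPH oxidase and lectin genes and of dendritic, B cell and astrocyte markers. The causes were not tested. Arrays were paired by genotype, which is a term of the model. No further pairing was possible because the labels give no replicate numbers and each group holds 1 array. With 2 arrays a side, small differences cannot be told from the spread, and dim genes lie close to the array background.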

Other observations

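The genes below are on none of the lists and were picked after their values were seen, so they carry no count. Several encode immunoglobulin-like receptors of myeloid cells. Pirb, an inhibitory receptor for class I molecules, lay at 10.90 and 10.91 on the control and icKO EAE arrays and at 9.95 and 9.83 on the p50 arrays (limma, -1.01 ± 0.13, adjusted p = 0.0248). The inhibitory receptor gene Pilra lay at 11.05 and 10.79 against 9.55 and 9.60 (-1.35 ± 0.17, adjusted p = 0.0245), and its activating relative Pilrb1 fell by 0.86. Cd300lf, which binds lipids, fell by 0.83 and Milr1, an allergy-restraining receptor of mast cells, by 1.05. Among genes of movement and redox balance, the adaptor Iqgap1 fell by 1.15, the cytokine Mif by 1.39 and thioredoxin, Txn1, by 1.66. The ribosomal protein genes Rpl37a and Rps26 fell by 1.46 each, but with the mean of its probe sets Rps26 differed by -0.73 and was no longer called (adjusted p = 0.0646). On the higher side, the GTPase regulator Tagap rose by 1.46, the arrestin relative Arrdc3 by 1.31 and Csmd3, a large membrane protein gene, by 1.24. Each of these calls ended without any 1 of the 4 arrays, except that Tagap was still called without the icKO EAE array. Without the naive arrays those of Pirb, Pilrb1, Cd300lf, Milr1, Mif, Txn1, Rpl37a, Tagap, Arrdc3 and Csmd3 ended too, and without the iguratimod arrays those of Milr1, Iqgap1, Tagap and Arrdc3. The summed intensity of the monocyte markers lay at 29060 and 30400 on the EAE arrays and at 5155 and 6099 on the p50 arrays, and its part in these values was not tested.

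Lower calls were fewest among the longest genes, and higher calls did not climb steadily with gene length. Among protein-coding autosomal genes divided into 4 groups of equal size by the span of the gene, the shortest group, up to 6.67 kb, gave 14 higher and 25 lower calls, and the longest, from 44.0 kb up, gave 18 higher and 2 lower. The second group, up to 18.6 kb, gave 19 higher and 33 lower, and the third gave 28 and 14. From shortest to longest, 0.533%, 0.724%, 1.07% and 0.685% were called higher. The shares called lower were 0.952%, 1.26%, 0.533% and 0.0762%. The 10502 protein-coding genes together gave 79 higher and 74 lower calls. Over all autosomal genes, which also include pseudogenes and other kinds, 0.677% were called higher and 1.30% lower, so that share is of an unlike set. Median differences of the shortest group were -0.05 and -0.08 log2 units in the control and the icKO pair, and those of the longest 0.07 and 0.08.

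Of 2997 tested pseudogenes, 19 were called higher and 141 lower, with medians of -0.17 and -0.24 in the control and the icKO pair. Among 10502 protein-coding genes the calls were 79 higher and 74 lower. The shares over all autosomal genes were 0.677% called higher and 1.30% called lower. Of 201 antigen receptor V segments 8 were called higher and none lower. Pseudogenes and segments share sequence with other genes, so their values are uncertain.

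Hnrnpa2b1, an RNA-binding protein, lay at 12.48 and 12.71 in EAE and at 13.28 and 13.69 in p50 EAE (limma, 0.89 ± 0.12, adjusted p = 0.0259), and was no longer called without the naive arrays or without any 1 of the 4 arrays.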
